A study of Mus musculus with 14 samples.

Results

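The genes described here are 5 guanylate-binding protein (GBP) genes, Gbp2, Gbp3, Gbp4, Gbp5 and Gbp6, which were taken by their symbols from 2 RNA-seq tables of mouse tumors and are 5 of the 12924 genes that both tables list. The libraries came from p110g-/- mice, labelled null for PI3K gamma, whose catalytic subunit is the product of Pik3cg, and from wild-type (WT) mice, all of the strain C57BL/6. The tumors were of Lewis lung carcinoma (LLC), a line derived from a mouse lung tumor, and had grown in the flanks of both genotypes for 14 days, so the genotype is that of the host and the labels name no alteration of the tumor cells. There were 3 p110g-/- and 3 WT libraries from 30 mg of whole tumor, and 4 p110g-/- and 4 WT libraries from 1000000 CD11b+Gr1- cells sorted from tumors by flow cytometry, which are called tumor-associated macrophages (TAM) as in the labels. The labels do not tie any library to its own animal, so the p-values below measure the spread between these libraries, which may be technical.

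GBPs are large GTPases that cells of the immune system and many others make after exposure to interferon, above all interferon gamma, with IRF1 among the factors that act on their genes. They gather on the membranes of vacuoles that hold microbes and on bacteria in the cytosol, together with the immunity-related GTPases (IRG proteins), and several of them favour the activation of inflammasomes. In the mouse their genes lie in a cluster on chromosome 3 and another on chromosome 5, and in tumor tissue their RNA is commonly read as part of the interferon-gamma response.

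Promoters are shown for the members on chromosome 3 only, because no window was available for Gbp4 and Gbp6 on chromosome 5. RefSeq windows from 250 bases before to 50 bases after the annotated start (GRCm38.p6, plus strand) matched 3 of the 5 members: Gbp2 at chr3:142620413-142620712, Gbp3 at chr3:142559794-142560093 and Gbp5 at chr3:142496684-142496983. Capitals mark matches to the core of the interferon-stimulated response element (ISRE), searched as GAAA, any 2 bases and GAAA, or on the other strand TTTC, any 2 bases and TTTC, and to the gamma-activated site (GAS), an element known from interferon-gamma response genes, searched as TTCNNNGAA, which reads the same on both strands.
Gbp2 promoter: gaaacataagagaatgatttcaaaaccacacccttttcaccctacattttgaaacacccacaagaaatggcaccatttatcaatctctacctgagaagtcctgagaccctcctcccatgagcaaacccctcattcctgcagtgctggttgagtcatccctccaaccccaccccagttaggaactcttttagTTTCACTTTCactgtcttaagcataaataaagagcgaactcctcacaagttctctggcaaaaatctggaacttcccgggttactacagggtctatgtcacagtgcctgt
Gbp3 promoter: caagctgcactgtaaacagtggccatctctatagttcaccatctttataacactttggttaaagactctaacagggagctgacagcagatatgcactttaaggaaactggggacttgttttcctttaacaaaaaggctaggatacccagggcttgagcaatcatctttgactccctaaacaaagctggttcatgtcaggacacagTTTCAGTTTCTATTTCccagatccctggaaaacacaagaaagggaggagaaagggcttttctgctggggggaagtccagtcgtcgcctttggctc
Gbp5 promoter: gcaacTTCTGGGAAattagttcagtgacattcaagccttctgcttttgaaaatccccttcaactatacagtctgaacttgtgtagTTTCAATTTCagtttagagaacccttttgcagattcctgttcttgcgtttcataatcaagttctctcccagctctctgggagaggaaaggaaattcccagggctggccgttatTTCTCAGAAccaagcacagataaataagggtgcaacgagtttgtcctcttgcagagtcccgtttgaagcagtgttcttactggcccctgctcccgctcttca
The Gbp2 window held 1 ISRE core, TTTCACTTTC, at -59 to -50 from the start. In the Gbp3 window the cores TTTCAGTTTC at -45 to -36 and TTTCTATTTC at -39 to -30 overlapped, and another annotated start of Gbp3, with the window chr3:142560106-142560405, had no match to either motif. The Gbp5 window held the core TTTCAATTTC at -165 to -156 and 2 GAS matches, TTCTGGGAA at -245 to -237 and TTCTCAGAA at -52 to -44. An ISRE core was found in 3.44% and a GAS in 8.3% of all 32851 promoter windows of the same length, and both in 0.454%. A match of letters is a description and was not tied to binding of any factor.

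The values are the authors' normalized counts, that is, each library's gene counts scaled by a single factor and rounded. The estimated depth in genes was 32.1 to 43.4 M reads in p110g-/- tumors, 41.5 to 44.6 M in WT tumors, 19.7 to 40.2 M in p110g-/- TAM and 26.8 to 40.7 M in WT TAM. At these depths 3 reads equal 1.79 to 5.81 normalized counts, and each of the 5 members was far above that in all 14 libraries. Pik3cg, the targeted gene, was lower in each p110g-/- library than in any WT library, with 242 to 417 normalized counts in p110g-/- tumors against 487 to 616 in WT tumors, and 1210 to 2211 in p110g-/- TAM against 2748 to 4477 in WT TAM. The summed normalized counts of 10 macrophage markers were 304365 to 412593 in p110g-/- TAM and 328680 to 418887 in WT TAM. In the whole tumors, whose table was normalized separately, they were 48261 to 71010 in p110g-/- and 45929 to 63782 in WT. Fibroblast markers were not absent from the sorted cells, and their sums ranged from 699 to 41383 in p110g-/- TAM and from 2565 to 53204 in WT TAM.

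In the whole tumors all 5 members were higher in p110g-/- than in WT, by 3.61-fold to 6.95-fold as a ratio of means. Gbp2, which in mice coats parasite vacuoles and takes part in activating the AIM2 inflammasome, had 3115, 4213 and 4553 normalized counts in p110g-/- tumors 1 to 3, against 689, 921 and 1123 in WT tumors 1 to 3. Gbp3, its neighbour on chromosome 3, had 627, 863 and 963 normalized counts in p110g-/- tumors, against 216, 209 and 255 in WT tumors. Gbp5, which is known for its link to inflammasomes in macrophages, had 392, 568 and 693 normalized counts in p110g-/- tumors, against 61, 98 and 148 in WT tumors. For each of these genes the lowest p110g-/- tumor lay above the highest WT tumor.

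The members on chromosome 5 were split in the same way. Gbp4 had 392, 777 and 764 normalized counts in p110g-/- tumors, against 52, 117 and 109 in WT tumors. Gbp6 had 529, 912 and 903 normalized counts in p110g-/- tumors, against 116, 122 and 145 in WT tumors. In both genes library 1 was the lowest of the p110g-/- tumors and also the lowest of the WT tumors, and the genotypes did not overlap. A sequence limit touches Gbp6: 70.7% of the 50-base words of its GENCODE exons occur in other genes too, 65% in Gm43302, and the sources used here do not say how shared reads were counted, so its level is uncertain. The same share was 1.44% to 7.7% for the other 4 members.

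**Figure D1:**
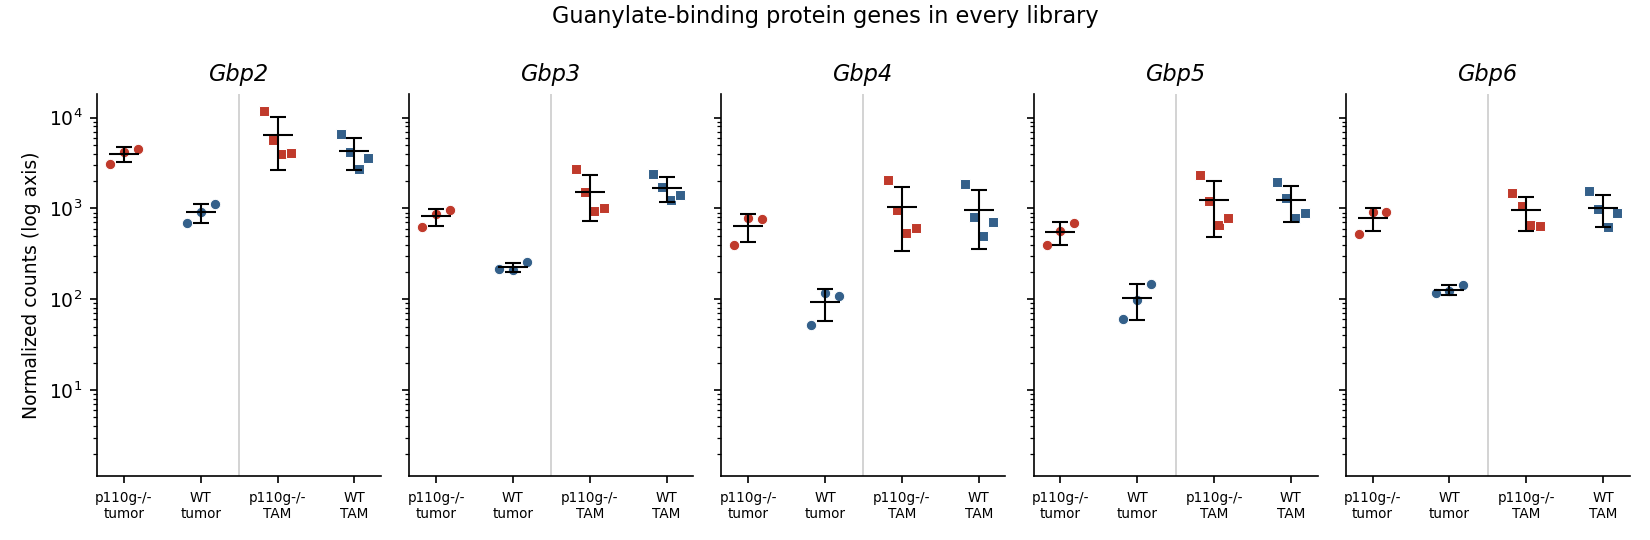
Normalized counts of the 5 members in every library (log axis), with a point per library, circles for whole tumor and squares for TAM, and bars for the group mean and SD (n = 3 a group for whole tumor and n = 4 a group for TAM). The p110g-/- tumors lie above the WT tumors for every member, while the TAM groups overlap for every member; the tables were normalized separately, so heights are not compared across the grey line.

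Tested with limma on log2(normalized count + 1), with Benjamini-Hochberg adjustment over all 12717 genes tested, all 5 members rose in p110g-/- tumors (adjusted p from 0.00743 to 0.0143). Genes called higher made up 2.25% of all genes tested, and genes whose p110g-/- tumors all lay above the WT tumors 15.7%. The log2 fold change was 2.80 ± 0.36 (SE) for Gbp4, 2.57 ± 0.21 for Gbp6, 2.47 ± 0.32 for Gbp5, 2.13 ± 0.19 for Gbp2 and 1.83 ± 0.16 for Gbp3. The intervals of 1 standard error on each side of neighbours in this order overlapped.

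Gbp2, Gbp3 and Gbp6 held their calls whichever library was left out, with limma adjusted p up to 0.0449. For Gbp4 and Gbp5 the adjusted p was above 0.05 without p110g-/- tumor 2, without p110g-/- tumor 3 or without WT tumor 2, reaching 0.0742 for Gbp4 and 0.0743 for Gbp5, while the log2 fold change stayed between 2.44 and 3.13 for Gbp4 and between 2.15 and 2.78 for Gbp5. When the spread was taken from all 14 libraries, which includes the wider TAM groups, Gbp6 alone of the 5 was called, with an adjusted p of 0.0262, and the fold changes were unchanged.

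The proportions of the 5 members to each other were also compared between genotypes, although 3 against 3 libraries cannot give an exact permutation p below 0.1. The log2 ratio of Gbp3 to Gbp6 within a library averaged 0.09 ± 0.16 in p110g-/- tumors and 0.82 ± 0.06 in WT tumors (SD, n = 3 each), and the ratio of Gbp3 to Gbp4 averaged 0.39 ± 0.27 in p110g-/- tumors and 1.36 ± 0.61 in WT tumors. In both ratios, and in those of Gbp3 to Gbp5, Gbp2 to Gbp6 and Gbp2 to Gbp3, the genotypes did not overlap. These 5 of the 10 pairs had the smallest p that the exact test allows, 0.1, and 0.2 after adjustment over the 10 pairs, so none passed the threshold. The pairs share members, and how many other gene pairs lacked overlap was not computed.

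Per kilobase of exon, Gbp2 was the most abundant member in p110g-/- tumors with 1574 ± 299 normalized counts per kb (SD, n = 3), against 362 ± 86.3 in WT tumors. Gbp3 followed with 250.4 ± 52.8 per kb in p110g-/- tumors and 69.4 ± 7.59 in WT tumors. Gbp6 had 131 ± 36.7 per kb in p110g-/- tumors and 21.4 ± 2.57 in WT tumors. Gbp4 and Gbp5 were the lowest and lay within a standard deviation of each other in both genotypes, with 86.0 ± 29.2 and 83.0 ± 22.8 per kb in p110g-/- tumors and 12.4 ± 4.73 and 15.4 ± 6.58 per kb in WT tumors. The lengths are unions of GENCODE M21 exons and not the authors' annotation, so the levels per kb are approximate.

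In the sorted TAM the genotypes overlapped for all 5 members, and none was called different. Of all genes tested, 2.37% had every p110g-/- TAM above every WT TAM and 1.93% every p110g-/- TAM below. Gbp2 had 11839, 5604, 3998 and 4071 normalized counts in p110g-/- TAM 1 to 4, against 6613, 4207, 2742 and 3630 in WT TAM 1 to 4. Gbp3 had 2684, 1497, 944 and 998 normalized counts in p110g-/- TAM, against 2376, 1730, 1229 and 1412 in WT TAM. Library 1 was the highest of its genotype for both genes, and the spread between numbers exceeded the distance between genotypes.

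Gbp4 had 2034, 957, 537 and 608 normalized counts in p110g-/- TAM, against 1859, 808, 494 and 707 in WT TAM. For Gbp5 the values were 2338, 1210, 658 and 783 in p110g-/- TAM, against 1975, 1310, 778 and 898 in WT TAM. Gbp6 had 1465, 1065, 659 and 632 normalized counts in p110g-/- TAM, against 1538, 988, 621 and 899 in WT TAM. All 3 genes were highest in library 1 and lowest in library 3 or 4 of each genotype.

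By limma, the log2 fold change of p110g-/- over WT TAM was 0.49 ± 0.39 (SE) for Gbp2, -0.23 ± 0.35 for Gbp3, 0.07 ± 0.51 for Gbp4, -0.08 ± 0.43 for Gbp5 and -0.10 ± 0.34 for Gbp6, with an adjusted p of 0.999 for each. Of the 5 members 0 were called and 0 had an unadjusted p below 0.05. Of the 12475 genes tested, 0.112% were called in either direction and 732 had an unadjusted p below 0.05. Same-numbered TAM libraries deviated together across all genes, so the number was also fitted as a block. The block shrank the standard errors to 0.09 to 0.12 and still called 0 of the 5 members, with 1 of them, Gbp2, below an unadjusted p of 0.05 and at an adjusted p of 0.0749, against 1.01% of genes called higher and 1.49% called lower with the block. With the block, 2327 of the 12475 genes tested had an unadjusted p below 0.05. A p that misses the threshold does not show that the levels were alike.

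**Figure D2:**
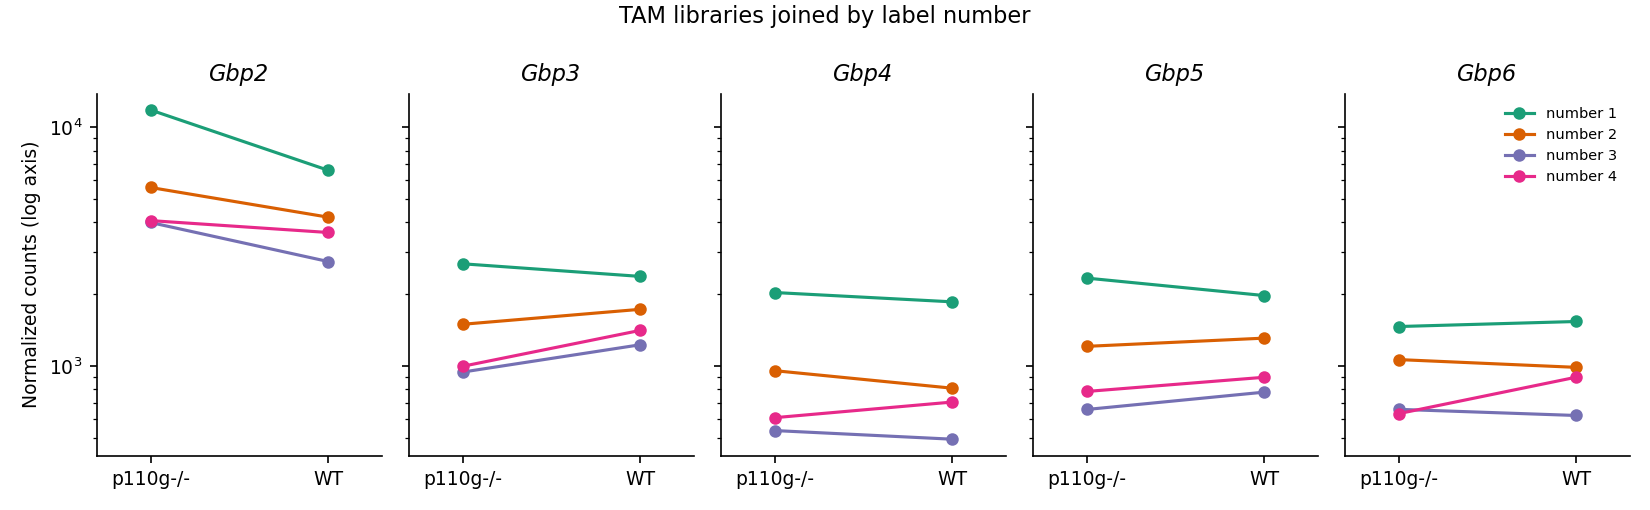
Normalized counts of the 5 members in TAM (log axis), with p110g-/- on the left and WT on the right of each panel and a line joining libraries of the same number. All 4 lines for Gbp2 are higher on the p110g-/- side, and the lines of the other members point both ways.

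Within the numbers the members did not all lean the same way. Gbp2 was higher in p110g-/- TAM in 4 of 4 numbers, against 1 of 4 for Gbp3, 3 of 4 for Gbp4, 1 of 4 for Gbp5 and 2 of 4 for Gbp6. Of all genes tested 11.2% were higher in p110g-/- TAM in every number. The log2 ratio of Gbp2 to Gbp3, which does not depend on the scaling of a library, was 1.90 to 2.14 in p110g-/- TAM and 1.16 to 1.48 in WT TAM. Its mean was 2.04 ± 0.10 in p110g-/- TAM and 1.32 ± 0.13 in WT TAM (SD, n = 4 each), a difference of 0.72.

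The ratios of Gbp2 to Gbp4, Gbp5 and Gbp6 were likewise higher in every p110g-/- TAM than in any WT TAM, by 0.42, 0.57 and 0.59 on the log2 scale. Each of these 4 ratios had p = 0.0286 in a two-sided exact permutation test, the smallest that 70 labelings allow, and an adjusted p of 0.0714 over the 10 pairs, which misses the threshold. All 4 contain Gbp2, so they are not 4 separate results. The share of other gene pairs without overlap was not computed. The 6 pairs without Gbp2 differed by at most 0.30 in size and had adjusted p of 0.429 or more by the same exact test. In whole tumors the ratio of Gbp2 to Gbp3 was also higher in p110g-/- (2.28 ± 0.04 in p110g-/- tumors and 1.98 ± 0.27 in WT tumors, SD, n = 3 each), whereas those of Gbp2 to Gbp4, Gbp5 and Gbp6 were lower on average.

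**Figure D3:**
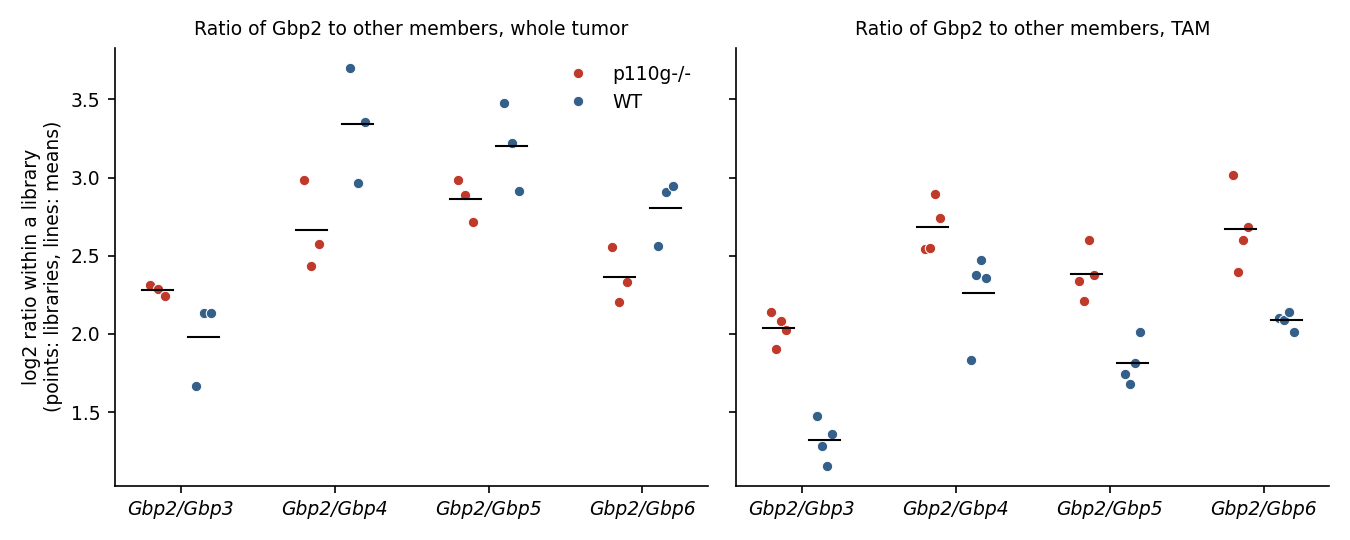
Log2 ratio of Gbp2 to each other member within a library, whole tumor on the left and TAM on the right, with a point per library and a line for the mean of the group. In TAM the p110g-/- points lie above the WT points for all 4 ratios, and in whole tumor they do so for the ratio to Gbp3.

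The level of the members within TAM moved with other properties of the libraries. Per 1000000 normalized counts of a library, the 5 members together made up 608, 303, 197 and 186 in p110g-/- TAM 1 to 4, and 418, 271, 176 and 222 in WT TAM 1 to 4. The summed fibroblast markers ran the other way, with 699, 8657, 41383 and 30096 normalized counts in p110g-/- TAM and 2565, 26062, 47700 and 53204 in WT TAM, all 7 markers being above 0 in every library. The share of mitochondrial genes was 2.73%, 3.21%, 9.01% and 14.4% in p110g-/- TAM and 2.51%, 3.06%, 7.70% and 9.59% in WT TAM. Of 4 carcinoma markers, Krt8 had 46, 197, 1569 and 1194 normalized counts in p110g-/- TAM 1 to 4, and 76, 499, 1573 and 1648 in WT TAM 1 to 4. Krt18 ran alike, and Epcam and Cdh1 did not. The estimated depth was 40.2, 29.9, 24.2 and 19.7 M reads in p110g-/- TAM 1 to 4, and 40.7, 31.0, 26.8 and 28.3 M in WT TAM 1 to 4. Libraries 1 and 2 of both genotypes thus had more GBP RNA, less fibroblast, Krt8 and Krt18 RNA, a lower mitochondrial share and more reads than libraries 3 and 4. The part of these in the members' levels was not tested. Among numbers 1 and 2 alone the log2 fold change was 0.63 for Gbp2 and -0.02 for Gbp3, and among numbers 3 and 4 alone 0.35 for Gbp2 and -0.44 for Gbp3. The Gbp3 difference among numbers 3 and 4, 2 libraries against 2, had a limma adjusted p of 0.0199. That split called 1428 genes, against 14 with every TAM library and 0 among numbers 1 and 2.

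The log2 fold change of each of the 5 members was lower in TAM than in whole tumor. On the log2 scale, the TAM effect less the whole-tumor effect was -2.73 ± 0.74 (SE) for Gbp4, -2.66 ± 0.48 for Gbp6, -2.55 ± 0.64 for Gbp5, -2.06 ± 0.47 for Gbp3 and -1.64 ± 0.53 for Gbp2. In the limma fit over all 14 libraries without a block, each had an unadjusted p below 0.05, from 1.2e-04 for Gbp6 to 0.00902 for Gbp2, and none passed the adjustment over 12396 genes (adjusted p from 0.0663 to 0.449), where 0.145% of genes were called in either direction. With the number as a block in both tables all 5 were called, with adjusted p of 8.4e-04 or less, beside 2.21% of genes called lower in TAM. Same-numbered tumors hardly deviated together (r = 0.0947, 0.0763 and 0.178), so their numbers give little ground for a block. With the block in TAM only, an alternative added after the values were known, all 5 were called with adjusted p of 0.00109 to 0.00682, beside 2.42% of genes called lower in TAM. In bulk libraries fewer cells of a type and less RNA per cell cannot be told apart, and this holds for each comparison here.

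**Figure D4:**
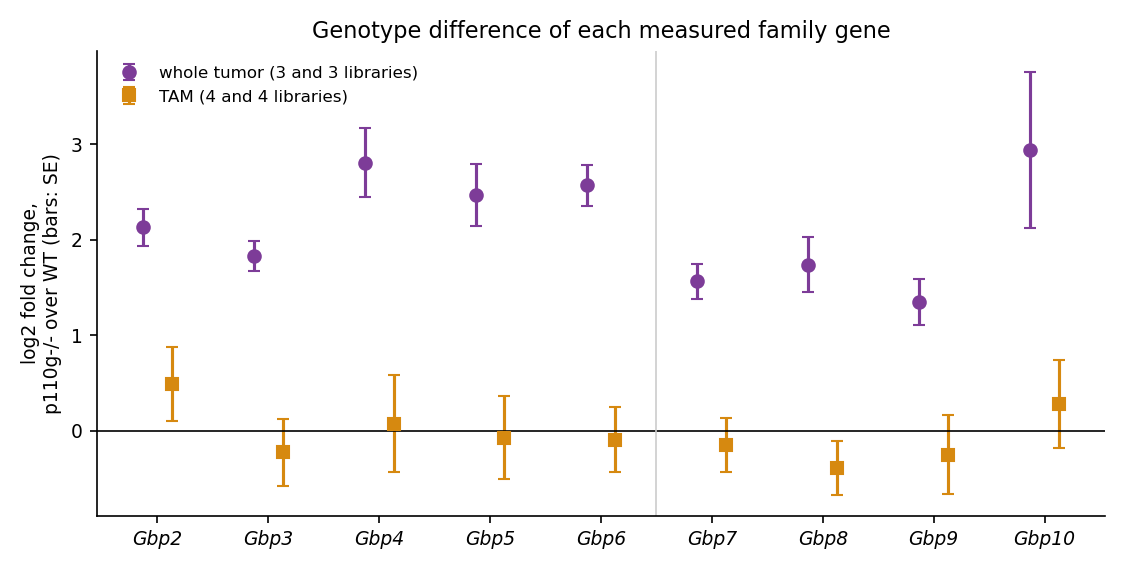
Log2 fold change of p110g-/- over WT for the 9 measured GBP genes, circles for whole tumor and squares for TAM, with bars for the standard error; the 5 members stand left of the grey line. In whole tumor all 9 values are above 1, and in TAM the values lie between -0.39 and 0.49 with none called.

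The 4 other GBP genes that the tables list were likewise higher in every p110g-/- tumor than in any WT tumor, as were 15.7% of all genes tested. By limma 3 of the 4 rose, Gbp7 by 1.56 ± 0.18 (log2, SE), Gbp8 by 1.74 ± 0.29 and Gbp9 by 1.35 ± 0.24, with adjusted p of 0.0094, 0.0271 and 0.0293. Gbp7 had 918, 1466 and 1464 normalized counts in p110g-/- tumors, against 379, 424 and 473 in WT tumors. Gbp10 had 15, 43 and 35 normalized counts in p110g-/- tumors and 0, 7 and 6 in WT tumors, with an adjusted p of 0.0772, and 84.1% of its 50-base words are shared, 73.3% with Gbp6. In TAM none of the 4 was called, 0 had an unadjusted p below 0.05 without the block, and the log2 fold changes ran from -0.39 for Gbp8 to 0.28 for Gbp10. With the block 0 were called and 1 had an unadjusted p below 0.05, as had 2327 of all 12475 genes tested. Among TAM numbers 3 and 4 alone, 2 libraries against 2, Gbp8 fell by 0.58 and Gbp9 by 0.36 on the log2 scale (limma adjusted p 0.0285 and 0.0331). That split called 1428 genes, against 14 with every TAM library and 0 among numbers 1 and 2, so these calls are not particular to GBP genes. Gbp7 and Gbp9 were lower in p110g-/- TAM in each of the 4 numbers, where 16.2% of all genes tested were higher in none. Without p110g-/- tumor 2, or without WT tumor 2, 0 of the 3 calls in whole tumor remained, and 1 remained, that of Gbp7, without p110g-/- tumor 3, WT tumor 1 or WT tumor 3, with adjusted p up to 0.109 and the direction the same in every fit. With a prior not dependent on the mean 1 of the 3 calls remained, and 0 with the spread over all 14 libraries.

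Genes next to the clusters did not move with them on chromosome 3. The nearest measured genes there, Rap1gds1, Unc5c and Pdlim5 on one side and Ccbl2, Gtf2b and Pkn2 on the other, had log2 fold changes of -0.08 to 0.10 in whole tumors and none was called by limma. On chromosome 5, Lrrc8b, Lrrc8c and Lrrc8d lay between -0.27 and 0.04 without a call. On the other side of that cluster, Abcg3, a transporter gene, rose in p110g-/- tumors, with 394, 601 and 667 normalized counts against 207, 289 and 291 in WT tumors, a log2 fold change of 1.06 and an adjusted p of 0.0393. Farther out, BC005561 had a log2 fold change of 0.46 (adjusted p 0.0549) and Zfp951 had -0.05. The gene order is that of a reference of another build than the reads, and these neighbours were chosen after their values had been seen. The Abcg3 call remained only without p110g-/- tumor 1, and the adjusted p was 0.0812 to 0.133 with any other single library left out.

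**Figure D5:**
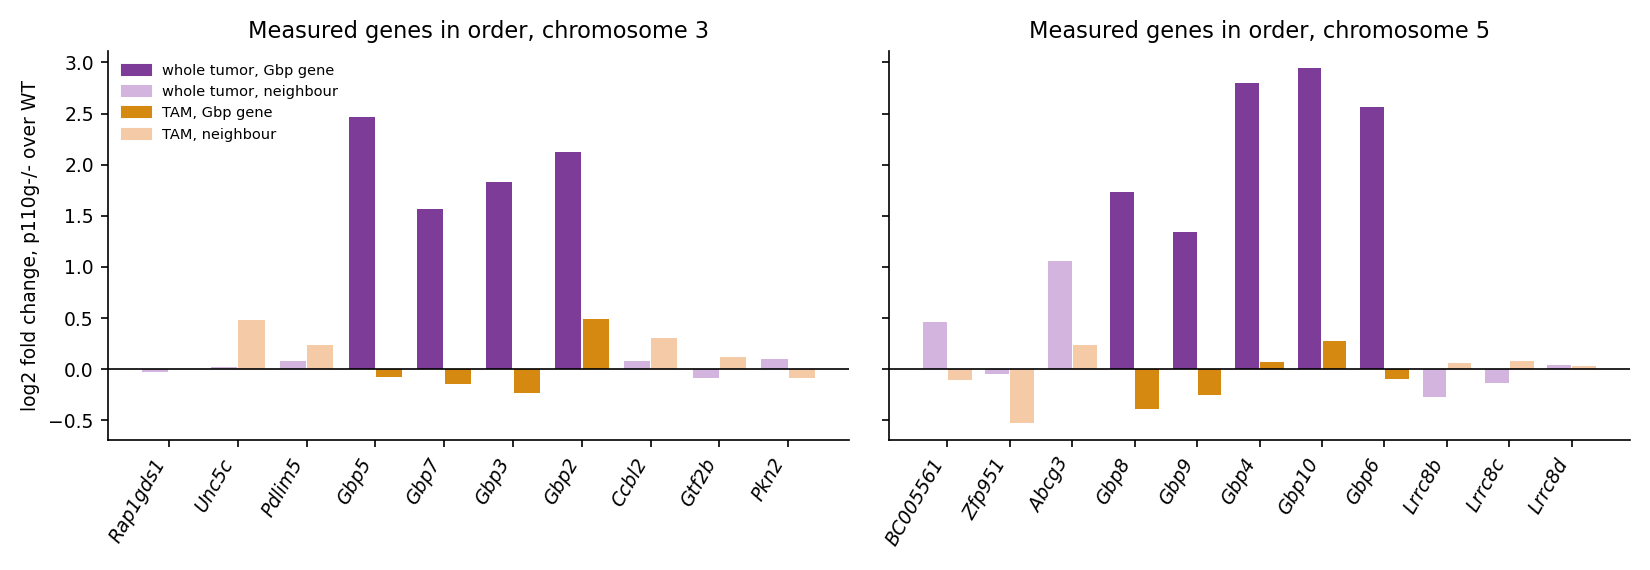
Log2 fold change of p110g-/- over WT for the measured genes of both GBP clusters and their neighbours in gene order, chromosome 3 on the left and chromosome 5 on the right, with 1 bar a gene for whole tumor and 1 for TAM. GBP genes (dark bars) reach 1.35 to 2.94 in whole tumor, and among the neighbours (pale bars) only Abcg3 exceeds 1.

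Of the IRG genes, whose GTPases act beside GBPs on vacuoles, all 6 measured rose in p110g-/- tumors by limma, with a median log2 fold change of 2.28 where that of all genes was 0.01. Iigp1 had 860, 1432 and 1570 normalized counts in p110g-/- tumors, against 133, 161 and 216 in WT tumors. Tgtp1 and Tgtp2, near-identical genes whose reads may be split between them, rose by 3.46 and 2.87, Igtp by 1.69, Irgm2 by 1.54 and Irgm1 by 1.20 on the log2 scale. In TAM 0 of the 6 were called and 0 had an unadjusted p below 0.05 without the block. With the block 0 were called and 4 had an unadjusted p below 0.05, as had 2327 of all 12475 genes tested. Irgm1, Irgm2, Igtp and Tgtp2 were lower in p110g-/- TAM in every number, where 16.2% of all genes tested were higher in none. All 6 were lower in the p110g-/- TAM on average, with a median log2 fold change of -0.40. In whole tumors 4 of the 6 calls remained without p110g-/- tumor 2, 5 without WT tumor 2 and all 6 without any other single library, and 2, those of Iigp1 and Tgtp2, with the spread over all 14 libraries.

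Interferon-gamma itself, which is made by T and NK cells and induces GBPs, was scarce. Ifng had 33, 45 and 39 normalized counts in p110g-/- tumors, against 2, 2 and 9 in WT tumors, with a limma log2 fold change of 3.15 ± 0.50 (SE) and an adjusted p of 0.0243. In TAM it had at most 6 normalized counts in any library, too few to be tested. Irf1, a transcription factor that interferon gamma induces, rose in p110g-/- tumors by 0.76 ± 0.09 on the log2 scale (adjusted p 0.0094). The calls of Ifng and Irf1 were both lost without p110g-/- tumor 2 or without WT tumor 2, and that of Ifng alone without p110g-/- tumor 3 or WT tumor 1, with adjusted p of 0.0967 or less. The Ifng call was also lost with a prior not dependent on the mean, and both with the spread over all 14 libraries. The receptor genes Ifngr1 and Ifngr2, the kinase genes Jak1 and Jak2, and Socs1, an inhibitor of the pathway, had log2 fold changes of -0.25 to 0.20 and were not called. In TAM 0 of the 7 tested genes of this list were called and 0 had an unadjusted p below 0.05 without the block. With the block 0 were called and 3 had an unadjusted p below 0.05, as had 2327 of all 12475 genes tested.

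Of 19 measured targets of interferon gamma, a list that holds Irf1 and Socs1 again, 14 rose by limma and 0 fell in p110g-/- tumors, with a median log2 fold change of 0.92. The chemokine genes Cxcl9, Cxcl10 and Cxcl11 rose by 3.45, 1.36 and 2.05, the immunoproteasome genes Psmb8, Psmb9 and Psmb10 by 1.00, 1.19 and 0.42, the peptide transporter genes Tap1 and Tap2 by 1.12 and 0.51, and Nlrc5, Nos2, H2-K1 and B2m by 1.29, 1.35, 0.92 and 0.57. Of the inflammasome genes, 1 of 9 rose, Casp1, which encodes the protease that matures interleukin 1 beta, by 0.64 (adjusted p 0.0114), a call lost without p110g-/- tumor 2 or without WT tumor 2. Of the 14 target calls, 0 remained without p110g-/- tumor 2 or without WT tumor 2, 2 without p110g-/- tumor 3, 8 without WT tumor 1, 13 without WT tumor 3 and 14 without p110g-/- tumor 1. With a prior not dependent on the mean 5 of the 14 remained, and 2 with the spread over all 14 libraries, under which the Casp1 call was lost too. In TAM the 19 targets had a median log2 fold change of -0.20, and 0 were called without the block, with an unadjusted p below 0.05 for 3. Of all 12475 genes tested in TAM without the block, 732 had an unadjusted p below 0.05. With the block Cxcl9 rose and Tap1 and Nlrc5 fell in p110g-/- TAM. Cxcl9 had 7753, 6381, 3806 and 4340 normalized counts in p110g-/- TAM 1 to 4, against 2810, 2397, 1630 and 2973 in WT TAM 1 to 4, without overlap, a log2 fold change of 1.16 and an adjusted p of 0.0149 with the block and 0.291 without it. Tap1 fell by 0.39 and Nlrc5 by 0.57 on the log2 scale, with adjusted p of 0.0388 and 0.0470 with the block.

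Of 21 measured targets usually ascribed to type I interferon, 0 rose in p110g-/- tumors by limma and 1, Ifi27l2a, fell by 0.63 on the log2 scale (adjusted p 0.0497, and up to 0.133 with any library but p110g-/- tumor 1 left out), with a median of 0.27 for the list and an unadjusted p below 0.05 for 9. Of all 12717 genes tested in whole tumors, 3332 had an unadjusted p below 0.05. In TAM the same 21 had a median log2 fold change of -1.59, with 2 called lower without the block and 21 with it. The 2 were Ifi44, down by 2.81, and Bst2, which encodes the antiviral protein tetherin, down by 0.94 on the log2 scale (limma adjusted p 0.0077 and 0.0302). The Ifi44 call was lost without WT TAM 2 (adjusted p 0.0740), and that of Bst2 without p110g-/- TAM 2, 3 or 4 or WT TAM 2, 3 or 4 (adjusted p 0.0537 to 0.166). Of the 7 measured type I signalling genes, 0 were called in whole tumors and 2, Stat2 and Irf9, had an unadjusted p below 0.05. That is near the share of all genes tested in whole tumors. In TAM 0 were called without the block, with an unadjusted p below 0.05 for 2, and 3 fell with it, Irf7 by 2.08, Stat2 by 0.75 and Irf9 by 0.34 on the log2 scale, with adjusted p of 0.00105, 0.00739 and 0.0270. Without the block, 732 of all 12475 genes tested in TAM had an unadjusted p below 0.05. The receptor genes Ifnar1 and Ifnar2, the kinase gene Tyk2 and Irf3 lay between -0.17 and 0.10 in TAM and between 0.06 and 0.13 in whole tumors. Beside these the members had TAM log2 fold changes of -0.23 to 0.49, and the difference between the lists was not tested.

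Markers of other cells also moved in the whole tumors. Of 10 T cell markers, 5 rose in p110g-/- tumors by limma, Cd8a by 2.75, Cd3g by 1.95, Cd8b1 by 1.67, Lck by 1.62 and Cd3d by 1.32 on the log2 scale. The sums of all 10 were 1063 to 1455 normalized counts in p110g-/- tumors and 493 to 889 in WT tumors. Thy1, which was not called, was the largest part of each sum. It had 770, 486 and 679 normalized counts in p110g-/- tumors and 352, 471 and 536 in WT tumors, which overlap. Of 8 NK and cytotoxic markers, Nkg7 and Prf1 rose, by 1.86 and 1.75, and the sums were 803 to 1470 in p110g-/- tumors and 318 to 662 in WT tumors. Gzma, of the same list, leaned the other way without a call. It had 43, 47 and 78 normalized counts in p110g-/- tumors, against 53, 64 and 116 in WT tumors, a log2 fold change of -0.43. None of these 18 markers was at 0 in any tumor library. Without p110g-/- tumor 2, 0 of these 7 calls remained, without p110g-/- tumor 3 or WT tumor 2 that of Cd8a alone, and without WT tumor 1 those of Cd8a and Nkg7. With a prior not dependent on the mean the calls of Cd8a and Nkg7 remained, and none of the 7 with the spread over all 14 libraries. The sums of 6 endothelial markers were 1394 to 1598 normalized counts in p110g-/- tumors and 792 to 1304 in WT tumors. All 6 were higher in p110g-/- tumors on average, 0 were called by limma, and 4 had an unadjusted p below 0.05, as had 3332 of all 12717 genes tested. Of 5 neutrophil markers 0 were called, 3 (Csf3r, Cxcr2 and Retnlg) had an unadjusted p below 0.05 and log2 fold changes of 0.65 to 0.78, and the sums overlapped between genotypes. None of the 10 macrophage markers was called (0 with an unadjusted p below 0.05), and their sums overlapped between genotypes. Of the 3 carcinoma markers tested, Krt8 and Krt18 fell by 0.63 and 0.45, calls that were both lost without WT tumor 2 or with the spread over all 14 libraries, and that of Krt18 also without p110g-/- tumor 2 or with a prior not dependent on the mean. The part of any of these cell types in the members' difference was not tested. In the sorted TAM the T cell sums were 151 to 410 in p110g-/- and 130 to 331 in WT. Without the block 0 of the 8 T cell markers tested were called or had an unadjusted p below 0.05. The NK and cytotoxic sums were 431 to 1282 in p110g-/- TAM and 709 to 1083 in WT TAM. Of the 6 tested, 0 were called, and 1, Gzma, had a limma unadjusted p below 0.05 without the block, with a log2 fold change of -2.65. Of all 12475 genes tested in TAM, 732 had such a p. Of the macrophage markers 0 were called in TAM without the block, and Fcgr1 fell by 0.66 on the log2 scale with it (adjusted p 0.0103).

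The genes whose pattern over the 14 libraries was most like the mean of the members were, of 10907 genes with a mean of at least 50 in both tables, Batf2, Iigp1, Gbp7, Ifi47, Gm4951 and Igtp. Likeness was the mean absolute difference, on the log2 scale, of values centred on the WT mean of their table. It was 0.17 for Batf2, 0.26 for Iigp1, 0.29 for Gbp7 and 0.31 to 0.32 for the rest, against 0.12 to 0.27 for the members themselves. Each member is part of the mean it was compared with, which lowers the members' own differences. Batf2 encodes a transcription factor. It had 111, 172 and 203 normalized counts in p110g-/- tumors and 22, 31 and 55 in WT tumors, with a log2 fold change of 2.19 and an adjusted p of 0.0246 that was 0.0605 to 0.0966 without p110g-/- tumor 2, p110g-/- tumor 3, WT tumor 1 or WT tumor 2. In TAM Batf2 had 743, 587, 362 and 316 normalized counts in p110g-/- and 716, 455, 269 and 349 in WT. It was highest in library 1 of each genotype and lowest in library 3 or 4. Batf2 was picked by its likeness over these same 14 libraries. Its rise in p110g-/- tumors and its order in TAM follow from that choice and are not separate evidence. Libraries share depth and scaling, so this likeness is a description.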

How the data were processed

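The tools named in the submitters' processing notes are Bowtie2 and DESeq, with mm9 as the mouse build and no version, role or annotation stated there. Whole tumors and TAM each have a table deposited by the authors, whose values are a score, namely whole numbers that the values show to be gene counts scaled by a factor per library and rounded, called normalized counts here. Each table was normalized by itself, so genotypes were compared within a table. A further column, headed pp, was not used. Depth was estimated from the step between the values, a method that recovered the step within 1% in 14 of 14 simulated libraries, and 3 reads is the floor used, for counting error only.

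The 5 members, the gene lists, the motifs and the tests were chosen with earlier results of these data known. limma 3.58.1 (R 4.3.3) was run on log2(normalized count + 1), a scale that understates the change of low genes, with a mean-dependent prior, for genes reaching 10 in at least the number of libraries of the smaller group. Tests were two-sided with Benjamini-Hochberg adjustment, and a gene was called (rose or fell) at an adjusted p below 0.05. In simulated tables the test recovered 91 of 100 genes changed by 1 on the log2 scale in TAM (12380 genes) and 99 of 100 in whole tumor (12702 genes). The simulated noise was independent between libraries, with each gene's spread set by the trend over all genes. It lacked the deviations that same-numbered TAM libraries share, so these rates need not hold for genes of wider spread. In the real TAM, Pik3cg had a log2 fold change of -1.02 without overlap and a limma adjusted p of 0.299 without the block. Ratios between members were tested by exact permutation.

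Same-numbered TAM libraries deviated together from their group means (r = 0.847, 0.472, 0.808 and 0.702 for numbers 1 to 4 over 12475 genes), so the number pairs them in a blocked fit; p110g-/- TAM 4 correlated as strongly with WT TAM 3 (0.704), and what the number marks is not stated in the labels. Named were all members, every measured GBP gene, Pik3cg, genes of the lists called without a block, the signalling lists, and the 6 genes most like the members; 1 gene of the lists is not reported here by name. Promoter sequences and gene order are from RefSeq (GRCm38.p6), which has 12840 of the 12924 identifiers. Alternatives were the pseudocount, the filter, the scaling, the block, sample weights, the prior, the pooled spread, subsets of the TAM numbers and each library left out.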

Additional observations from a re-analysis of the deposited data

Results flagged for a closer look

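In TAM, a single library stood far from the rest of its group in the measured GBP genes. Gbp8 had 636 normalized counts in WT TAM 1, against 337, 337 and 379 in WT TAM 2 to 4, a gap to the nearest value of 0.860 of the range, past the limit of Dixon's test for 4 values. This was 1 of 18 groups examined, all of them in TAM, and chance gives about 1 in 20. The whole-tumor groups of 3 libraries were not examined in this way.

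The genotype effect differed between the tissues for all 5 members when the number was a block in TAM only. On the log2 scale the TAM effect less that in whole tumor was -1.64 for Gbp2, -2.06 for Gbp3, -2.73 for Gbp4, -2.55 for Gbp5 and -2.66 for Gbp6. The limma adjusted p was 0.00109 for Gbp3 and Gbp6, 0.00576 for Gbp5, and 0.00682 for Gbp2 and Gbp4. In the fit of all 14 libraries with no block and no weights the adjusted p of each was above 0.05.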

How the results depend on the processing

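In whole tumor all 5 members kept their call under 8 of 9 alternatives that used every library, and 1, Gbp6, did with the spread over all 14 libraries. With a library left out 3 to 5 were called, 3 without p110g-/- tumor 2, p110g-/- tumor 3 or WT tumor 2. The tumor numbers share only a number (r = 0.0947, 0.0763 and 0.178), and that replicate block called all 5 members and 759 genes, against 553 without it. Genes called in whole tumor were 2308 with sample weights, 131 with a prior not dependent on the mean, 15 with the spread over all 14 libraries, and 29 to 2001 with a library left out (lowest without p110g-/- tumor 2, highest without p110g-/- tumor 1).

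In TAM 0 members were called under all but 1 alternative, and 1 (Gbp3) among numbers 3 and 4 only. Genes called, 14 as reported, were 312 with the replicate block, 999 with weights, 88 with the spread over all 14 libraries, 0 among numbers 1 and 2, 1428 among numbers 3 and 4, 133 without both libraries numbered 1, and 3 to 40 with a library left out. The sign turned for Gbp5 (0.064) and Gbp6 (0.019) among numbers 1 and 2, and for Gbp4 (-0.049) among numbers 3 and 4. With a library left out the log2 fold change ran from 0.14 (without p110g-/- TAM 1) to 0.72 (without WT TAM 1) for Gbp2 and from -0.54 (without p110g-/- TAM 1) to -0.041 (without p110g-/- TAM 3) for Gbp3. It ran from -0.33 to 0.44 for Gbp4, -0.44 to 0.18 for Gbp5, -0.33 to 0.13 for Gbp6, -0.34 to 0.029 for Gbp7 and -0.58 to 0.034 for Gbp9, lowest without p110g-/- TAM 1 and highest without WT TAM 1.

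For the difference of effects, 5 members were called with the replicate block, with the block in TAM only, with weights, among numbers 3 and 4, and without both TAM numbered 1, and 0 to 4 with a library left out (4 without p110g-/- TAM 1, 1 without WT TAM 3). Genes called, 18 as reported, were 327, 404, 1249, 721 and 225 under the same 5 settings, 0 among numbers 1 and 2, and 0 to 101 with a library left out. Over these alternatives the adjusted p ran from 1.5e-04 to 0.912, and the sign held for each member. The block in TAM only and the loss of both TAM numbered 1 were chosen after seeing the data. The weights of the TAM and of the joint fit did not converge. The cause of these changes was not tested.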
